A study of Mus musculus with 2 samples.

Results

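The cells described here are basal keratinocytes of mouse back skin that carry transcripts of the outer sheath of the hair follicle, 2353 of the 17492 cells that passed the filters in a pair of single-cell libraries. They were selected on measured values. A cell entered if 6 keratinocyte genes (Krt5, Krt14, Krt15, Dsp, Perp and Sfn) made up at least 1% of its unique molecular identifiers (UMIs), if Krt1 with Krt10 and Col1a1, Col1a2, Col3a1 with Dcn each stayed under 0.5%, and if Mki67, Top2a, Cdk1 and Cenpf together gave fewer than 3 UMIs. It also needed at least 3 UMIs of Sostdc1, Postn, Ptn, Megf6 and Fst together, and no fewer than it held of 6 bulge genes (Lgr5, Cd34, Lhx2, Krt24, Angptl7 and Fgf18). The rule took 1492 of 8875 wildtype cells, or 16.8% (exact Clopper-Pearson 95% interval 16 to 17.6), and 861 of 8617 knockout cells, or 9.99% (interval 9.37 to 10.6). Among all gated basal keratinocytes, 3862 in the wildtype and 2616 in the knockout library, they made up 38.6% (interval 37.1 to 40.2) and 32.9% (interval 31.1 to 34.8). A UMI threshold sets these shares together with the depth of the cells, so they are given as a description.

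The outer root sheath is the epithelial sleeve of the hair follicle that continues upward into the isthmus and the epidermis, and the bulge with its stem cells lies along it. Its basal cells are known for secreted regulators of BMP, Wnt and activin signalling, through which epithelium and dermis exchange signals during the hair cycle. Eppk1 encodes epiplakin, a large protein of the plakin family that binds keratin filaments in epithelial cells.

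Whole dorsal skin from a 6 mm punch was dissociated, fixed and profiled with a probe-based 10x assay (Flex), in which pairs of probes hybridized to an RNA are ligated and counted. The wildtype library came from 1 C57BL/6J mouse and the knockout library from 1 Eppk1-/- mouse of a line backcrossed into C57BL/6J. Neither mouse was treated, and neither their ages nor the hair cycle stage of the skin are given in the sources used here. With 1 library per genotype no difference could be tested, so the intervals below cover counting error alone, and how far mice of a genotype differ is not known.

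The selected cells held 7227054 non-mitochondrial UMIs in the wildtype and 3695400 in the knockout library. Their median depth was 3761 and 3516 UMIs per cell, with 1917 and 1829 genes. Mitochondrial genes took a median of 0.687% and 0.638% of their UMIs, which lay closer to the bulge-gated cells (0.793% and 0.764%) than to the remaining gated basal keratinocytes (0.221% and 0.225%). Cells of both mice had been pooled under separate probe barcodes, and 1211 droplet barcodes occurred in both libraries. Of the selected cells, 195 wildtype and 123 knockout cells lay in such shared droplets. Levels are given as CPM, the UMIs of a gene per 1000000 non-mitochondrial UMIs of the summed cells, and ratios as log2 of knockout over wildtype with 0.5 UMI added to each sum.

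The 5 selecting genes were high in these cells because the rule required them. Fst encodes follistatin, a secreted protein that binds activin, and stood at 1903 CPM in wildtype and 2019 CPM in the knockout library, against 25.7 and 19.0 CPM in the remaining gated basal keratinocytes. Postn encodes the matrix protein periostin and stood at 1761 and 1836 CPM. Ptn, the heparin-binding growth factor pleiotrophin, stood at 882 and 897 CPM. Sostdc1, a secreted antagonist of BMP and Wnt ligands, was lower in the wildtype (150 CPM, exact Poisson interval 141 to 159) than in the knockout library (254 CPM, interval 238 to 271). Megf6, which encodes a protein with EGF-like repeats, stood at 94.4 and 84.2 CPM.

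Among the other genes of the rule, Krt5, Krt14 and Krt15 stood at 6085, 3901 and 5674 CPM in wildtype cells and at 6789, 3997 and 5543 CPM in knockout cells, and of the bulge genes Angptl7 stood at 94.5 and 50.6 CPM and Lgr5 at 71.8 and 53.3 CPM.

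In mm10 Sostdc1 lies at chr12:36314139-36318452 on the plus strand, Postn at chr3:54361109-54391037 on the plus strand, Ptn at chr6:36714929-36810220 on the minus strand, Megf6 at chr4:154170730-154275713 on the plus strand and Fst at chr13:114452290-114458951 on the minus strand (GENCODE M21). Each cell was thinned to 2000 UMIs, which left out 151 wildtype and 139 knockout cells. The shares of selected wildtype cells with a UMI were then 69.2% (Fst), 58.2% (Ptn), 52.6% (Postn), 23.3% (Sostdc1) and 15.4% (Megf6). Without thinning, these shares were 78.8%, 70.4%, 61.0%, 35.9% and 22.6%. Immune-gated cells, which should lack Fst, gave a thinned share of 1.26% in the wildtype, from cells with a median of 5667 UMIs before thinning. At least 3 of the 5 genes were detected in 55.6% of the wildtype and 52.1% of the knockout cells, and 1 alone in 16.1% and 17.5%.

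The sum of the 5 genes had a median of 16 UMIs per cell in the wildtype and 14 in the knockout library and reached 236 in both. At the threshold itself, 106 wildtype and 74 knockout cells had exactly 3 UMIs, and 161 and 96 gated cells that were not bulge-gated lay just outside with 2. Sox9, a transcription factor of the outer root sheath and bulge, stood at 742 CPM in the wildtype cells just inside and at 583 CPM in those just outside, and in the knockout library at 782 and 711 CPM. Krt79, a keratin of the upper follicle, stood at 1626 and 1263 CPM in wildtype and at 1473 and 1574 CPM in the knockout library. Cells on both sides of the threshold were thus closer to each other in Sox9 than to the wildtype cells with more than 20 UMIs of the 5 genes, at 1488 CPM, or to those with none, at 185 CPM.

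Marker genes outside the rule fitted the name of outer sheath and isthmus cells in part. Sox9 stood at 1265 CPM in the selected wildtype cells and 1219 CPM in the selected knockout cells, against 267 and 260 CPM in the remaining gated basal keratinocytes. Barx2, a homeobox gene of the follicle, was likewise higher (151 and 182 CPM against 32.2 and 33.8), as was the follicle keratin Krt6a (819 and 644 CPM against 52.7 and 55.7). Krt17 lay close between the classes (2387 and 2243 CPM against 2239 and 1912), and Krt16 was lower in the selected cells (824 and 574 CPM against 2417 and 2008).

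Of the 6 isthmus and upper follicle markers, 3 were higher in the selected cells of both libraries. Lrig1, which marks stem cells of the isthmus, stood at 243 and 251 CPM against 137 and 122 CPM. Lgr6, an R-spondin receptor of isthmus stem cells, stood at 109 and 101 CPM against 61.2 and 71.0 CPM, and Gata6, a transcription factor of the junctional zone, at 107 and 102 CPM against 51.3 and 34.0 CPM. The other 3 were not higher throughout. Plet1 was lower in the selected cells (3085 and 3368 CPM against 5409 and 5154), Krt79 was lower or level (903 and 879 CPM against 1097 and 884), and the beta-defensin gene Defb6 was lower in the wildtype but higher in the knockout library (957 and 1126 CPM against 1487 and 951). A single selected knockout cell held 568 of the 4162 Defb6 UMIs there. Set against the remaining gated cells alone, the name therefore holds for the Sox9, Barx2, Lrig1, Lgr6 and Gata6 levels and not for Plet1 or Krt16. Sox9 was higher still in the bulge-gated cells. The 5 outer root sheath markers summed to 5446 and 4861 CPM in the selected and 5833 and 4457 CPM in the bulge-gated cells. The 6 isthmus and upper follicle markers, Plet1 being the most counted, summed to 5404 and 5827 CPM against 1212 and 1301 CPM. Krt17, Krt79 and Defb6 did not bear it out either, and the cells are called the selected keratinocytes below.

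**Figure D1:**
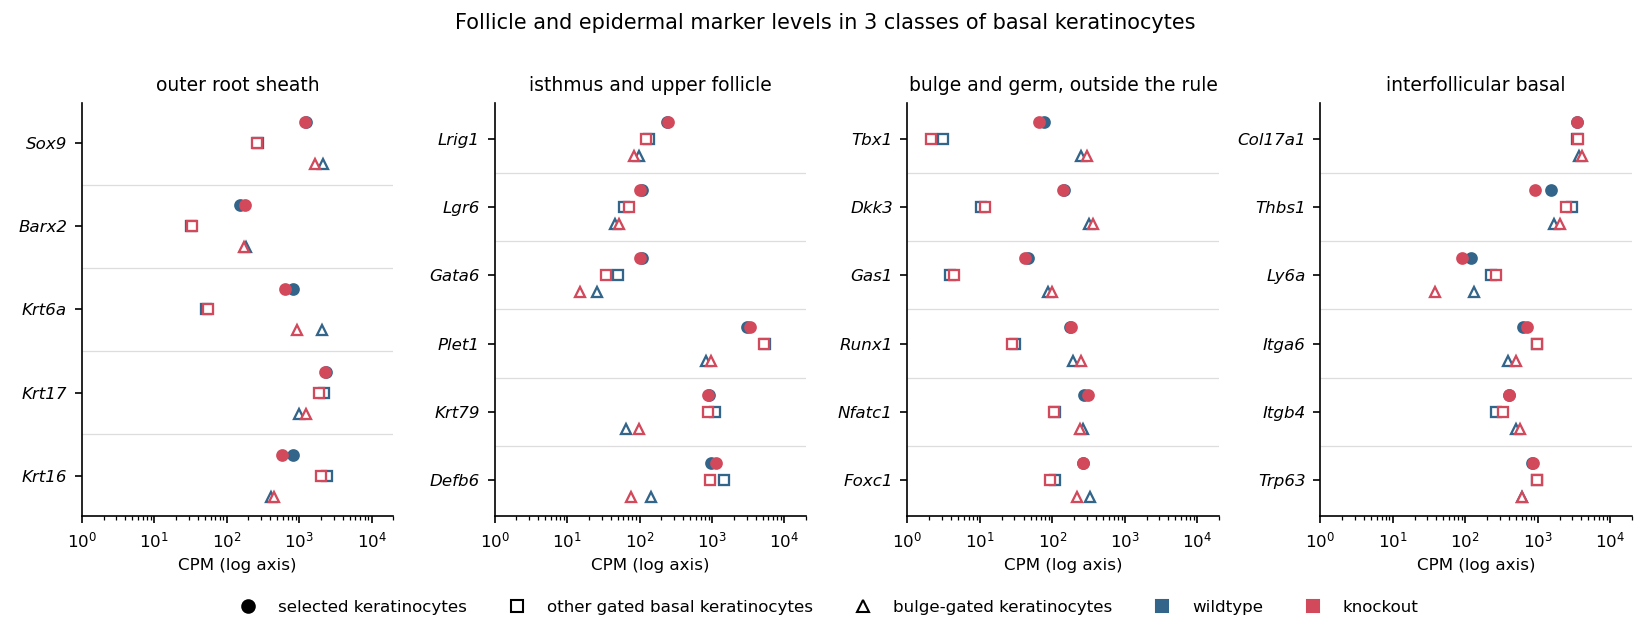
CPM on a log axis of markers of 4 follicle and epidermal regions, in the selected keratinocytes (filled circles), the remaining gated basal keratinocytes (squares) and the bulge-gated keratinocytes (triangles), wildtype in blue and knockout in red. Sox9 in the selected keratinocytes (1265 and 1219 CPM) lay between the remaining gated (267 and 260 CPM) and the bulge-gated keratinocytes (2156 and 1652 CPM).

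Bulge genes were present as well. At least 1 UMI of the 6 bulge genes was found in 53.6% of the wildtype and 47.6% of the knockout cells. Tbx1, Dkk3 and Runx1, bulge markers that the rule did not use, were higher than in the remaining gated keratinocytes. Tbx1, a transcription factor of follicle stem cells, stood at 76.2 and 66.0 CPM against 3.1 and 2.11 CPM. Dkk3, of the Dickkopf family, stood at 145 and 139 CPM against 10.2 and 11.7 CPM, and Runx1, a transcription factor active in the follicle, at 177 and 179 CPM against 30.4 and 28.1 CPM. In the 213 wildtype and 124 knockout bulge-gated cells Tbx1 reached 252 and 302 CPM and Dkk3 reached 323 and 360 CPM. Interfollicular basal markers were not all lower, with Col17a1, the collagen of the hemidesmosome, at 3449 and 3487 CPM against 3437 and 3568 CPM and Itga6, a laminin receptor subunit, at 623 and 718 CPM against 964 and 978 CPM.

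The selected keratinocytes fell into groups by the gene that gave most of the 5 genes' UMIs. Fst led in 615 wildtype cells (41.2%, interval 38.7 to 43.8) and 389 knockout cells (45.2%, interval 41.8 to 48.6). Postn led in 500 (33.5%, interval 31.1 to 36) and 246 (28.6%, interval 25.6 to 31.7), and Ptn in 213 (14.3%) and 99 (11.5%). Sostdc1 led in 67 wildtype cells (4.49%, interval 3.50 to 5.67) and 73 knockout cells (8.48%, interval 6.70 to 10.5). Megf6 led in 13 and 2 cells, and 84 and 52 cells were tied.

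Among the 4 larger groups, some bulge markers outside the rule were higher in Postn-led than in Fst-led cells in both libraries, and others were not. Tbx1 stood at 196 and 192 CPM in Postn-led cells and at 14.8 and 14.2 CPM in Fst-led cells. Dkk3 stood at 396 and 437 CPM in Postn-led and at 32.3 and 27.3 CPM in Fst-led cells. Nfatc1 (337 and 387 CPM against 224 and 265) and Foxc1 (265 and 260 CPM against 199 and 218) were also higher in Postn-led cells. Runx1 did not share this, with 194 and 146 CPM in Postn-led and 180 and 213 CPM in Fst-led cells. Cdh3, another marker of the bulge list, was lower in Postn-led cells of both libraries, at 285 and 249 CPM against 408 and 482 CPM. The genes of the rule are a description only, since the number of bulge UMIs a cell may hold is bounded by its UMIs of the 5 selecting genes, whose median was 26 in Postn-led cells of both libraries and 15 and 14 in Fst-led cells. A UMI of a bulge gene was found in 89.8% of the Postn-led wildtype cells and 90.7% of the Postn-led knockout cells, and in 24.4% and 20.8% of the Fst-led cells. Cd34, a surface marker of bulge stem cells, stood at 1054 and 1253 CPM in Postn-led, 47.7 and 25.2 CPM in Fst-led and 14.9 and 14.8 CPM in Sostdc1-led cells. The keratin Krt15, a gate gene, stood at 9722 and 9908 CPM in Postn-led cells and was lowest in Fst-led cells, at 2678 and 2969 CPM.

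Genes of the upper follicle differed in where they were highest among these 4 groups. Plet1 was highest in Fst-led cells, at 4427 and 4844 CPM, and lowest in Postn-led cells, at 1433 and 1115 CPM. Krt79 was lowest in Postn-led cells too, at 91.0 and 39.0 CPM, but its highest level was in Fst-led cells of the wildtype (1459 CPM, with 1391 CPM in Sostdc1-led cells) and in Sostdc1-led cells of the knockout library (3110 CPM, with 870 CPM in Fst-led cells). Lgr6 was highest in Ptn-led cells, at 268 and 250 CPM. Sostdc1-led cells had more Acsbg1, an acyl-CoA synthetase gene, than the other 3 groups (656 and 932 CPM) and the least Krt6a (23.8 and 41.3 CPM). Of the UMIs of Krt75, a keratin of the companion layer, 180 of 201 lay in Ptn-led cells of the wildtype, and in the knockout library 23 of 48 lay in Ptn-led and 22 in Postn-led cells. Each pattern was read in the same 2 libraries and from cells chosen by the same genes, so it describes these cells and was not tested.

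**Figure D2:**
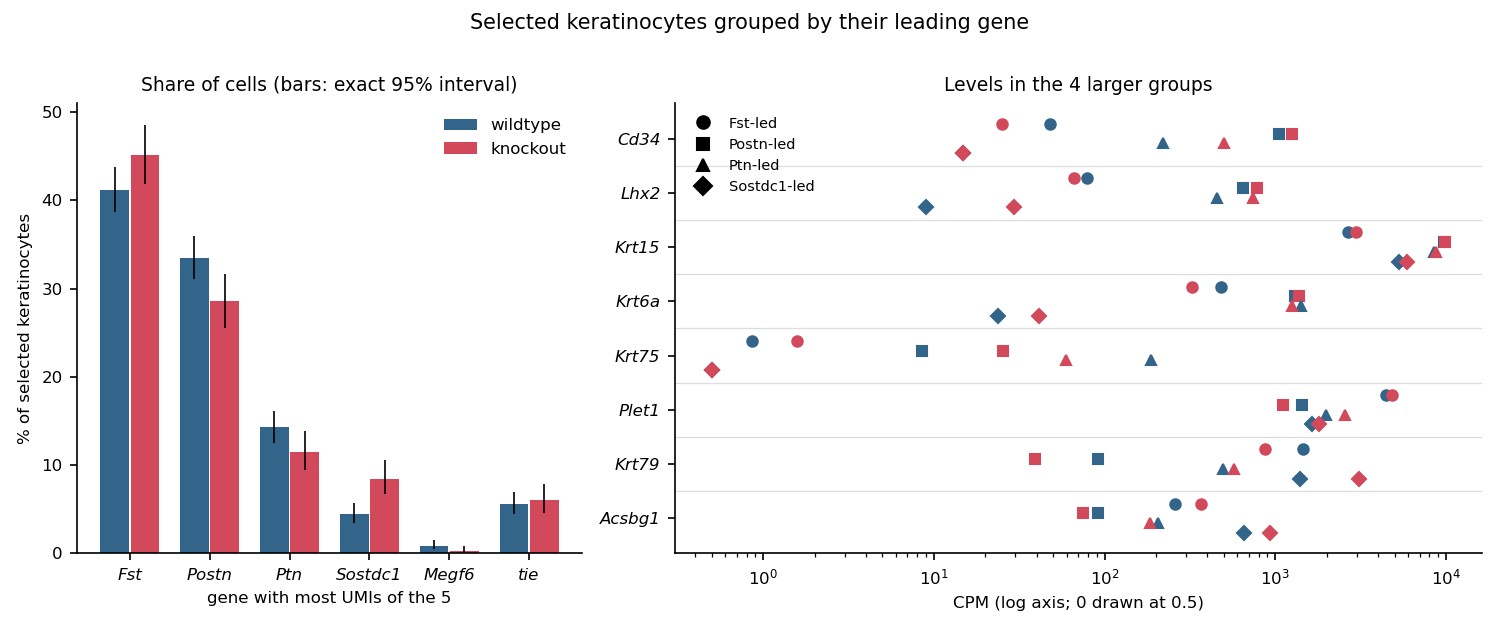
Left, the percentage of selected keratinocytes in which each of the 5 genes gave most UMIs, with exact 95% intervals; right, CPM on a log axis of 8 follicle genes in the 4 larger groups (marker shapes), wildtype in blue and knockout in red. Cd34 stood at 1054 and 1253 CPM in Postn-led and at 47.7 and 25.2 CPM in Fst-led cells.

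Beyond the markers, the genes highest relative to the remaining gated basal keratinocytes in both libraries, among those outside the rule and found in at least 25% of the selected cells of each, included genes of the matrix, of signalling and of transport. Hmcn1, which encodes the matrix protein hemicentin-1, stood at 105 and 116 CPM against 4.54 and 3.66 CPM, a log2 ratio of 4.51 in the wildtype and 4.96 in the knockout library. The Wnt receptor gene Fzd2 stood at 129 and 111 CPM against 8.15 and 10.4 CPM, and the FGF receptor gene Fgfr1 at 192 and 204 CPM against 27.4 and 21.4 CPM. Aqp3, the water and glycerol channel of the epidermis, was the most counted of them at 1519 and 1604 CPM against 252 and 206 CPM. Id1 and Id2, inhibitors of helix-loop-helix factors that BMP signalling induces, were higher by log2 ratios of 2.36 and 2.71 in the wildtype and 2.33 and 2.54 in the knockout library. Dapk2, Nedd9, Ank, Runx1 and Alcam completed the list with ratios between 2.29 (Alcam, wildtype) and 3.65 (Dapk2, knockout).

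Of the 8 lowest genes, Igfbp3, which encodes a binding protein of insulin-like growth factors, stood at 2864 CPM in the selected wildtype cells and 1791 CPM in the selected knockout cells, against 13357 and 15213 CPM in the remaining gated cells. Serpinb2, a protease inhibitor, stood at 3161 and 2533 CPM against 11713 and 12697 CPM. Il1r2, the decoy receptor of interleukin-1, stood at 31.8 and 23.3 CPM against 121 and 181 CPM, and Bmp4 at 31.1 and 35.7 CPM against 122 and 135 CPM. Sema3d, Adam8, Ndufa4l2 and Hs3st1 were lower by log2 ratios between -1.96 (Hs3st1, wildtype) and -2.93 (Adam8, knockout).

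Set against the bulge-gated cells, the selected keratinocytes were higher in Defb6 (957 and 1126 CPM against 145 and 77.3), in Grhl3, a transcription factor of the epidermal barrier (339 and 290 CPM against 56.8 and 45.3), and in Ahr, the aryl hydrocarbon receptor (400 and 479 CPM against 80.7 and 58.5). Aldh3a1, the Wnt inhibitor gene Apcdd1 and Sox7 were higher as well, by log2 ratios of 2.42, 2.32 and 2.22 in the wildtype and 3.73, 4.39 and 3.22 in the knockout library. Smoc1, which encodes a matrix protein that modulates BMP signalling, was the lowest at 41.2 and 47.1 CPM against 230 and 294 CPM, and Tbx1, Adcy1, Sulf2, Rab11fip4 and Gpc6 followed with ratios between -1.55 (Gpc6) and -2.03 (Adcy1) in the wildtype. These comparators were gated on the same transcripts, so no ratio between classes is a test.

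The comparison of the genotypes within the selected keratinocytes asks which genes differ where epiplakin is missing. Eppk1 lies on the minus strand at chr15:76101481-76120195 of mm10. It was counted 7434 times in the wildtype cells, or 1029 CPM (interval 1005 to 1052), and 425 times in the knockout cells, or 115 CPM (interval 104 to 126), which gave a log2 ratio of -3.16 (interval -3.31 to -3.02). The ratio was -3.72 in the remaining gated keratinocytes and -2.92 in the bulge-gated cells. After thinning, a UMI was found in 65.1% of the wildtype cells (interval 62.5 to 67.7) and 15.4% of the knockout cells (interval 12.8 to 18.2), against 77.2% and 21.4% without thinning. Immune-gated cells, with medians of 5667 and 4582 UMIs, gave thinned shares of 4.77% and 2.24%. The knockout share was above that background, and 1 knockout cell held 51 of the 425 UMIs. The ratio without the cell with most Eppk1 UMIs in each library was -3.32. Which part of the gene the probes cover relative to the deletion is not given in the sources used here, so the remaining UMIs do not show whether any transcript is intact.

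The other 6 plakins lay close between the libraries. Their sum stood at 7249 CPM in wildtype and 7350 CPM in the knockout library, which left a log2 ratio of 0.02 (interval -0.00 to 0.04), and without Dsp, which also gates the cells, at 3460 and 3498 CPM. Plec, which encodes plectin, had the highest ratio, at 855 CPM (interval 834 to 877) and 1081 CPM (interval 1048 to 1115), or 0.34 on the log2 scale. Dst, whose products include the dystonin of hemidesmosomes, had the lowest, at 1494 and 1342 CPM (log2 ratio -0.15, interval -0.20 to -0.11). Macf1, Ppl and Evpl had ratios of -0.01, -0.07 and -0.08.

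Of 3156 genes detected in 25% or more of the selected cells of a library, 10 were higher in the knockout library by a log2 ratio of 0.5 or more (0.317%) and 40 were lower by as much (1.27%). The detection rule could be met in either library alone, as by Hpgd (25.1% of wildtype and 17.4% of knockout cells) and Hspg2 (23.6% and 28.7%). For such genes the difference itself helped decide entry, so these counts are a description only. The median ratio over all 3156 was 0.02. The whole counting interval lay past 0.5 for 2 of the 10 and for 19 of the 40. The 2 were Sostdc1, a gene of the rule, and Zfp296, and the targeted gene Eppk1 is counted among the 40 and the 19. The remaining gated basal keratinocytes, by the same rule, gave 14 higher and 27 lower of 2864 genes. Of the 40 genes, 35 had a negative ratio there too and 12 were at -0.5 or lower, while in the bulge-gated cells 34 were negative and 23 at -0.5 or lower. Of all 3156 genes, 47.8% were negative and 1.27% at -0.5 or lower in the remaining gated cells, and 43.7% and 5.99% in the bulge-gated cells, which were few. The median ratio of the 40 lower genes was -0.65 in the selected cells, -0.33 in the remaining gated cells and -0.62 in the bulge-gated cells. It was -0.33 in fibroblast-gated cells and -0.13 in immune-gated cells. The genes were picked by their ratio in the selected cells, which alone pushes the first value away from 0.

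**Figure D3:**
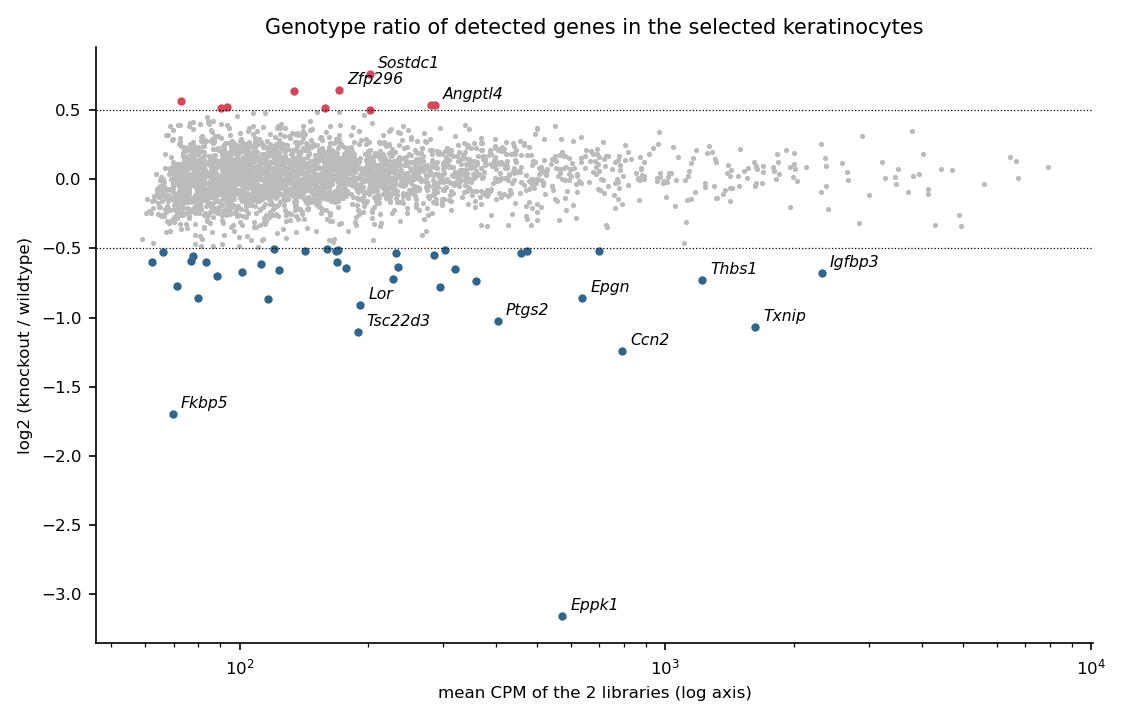
Log2 ratio of knockout over wildtype against the mean CPM of both libraries (log axis) for the 3156 genes detected in at least 25% of the selected keratinocytes of a library, with dotted lines at a ratio of 0.5 in either direction. The 40 lower genes are blue and the 10 higher genes red; Eppk1 lies at -3.16, Fkbp5 at -1.70 and Ccn2 at -1.24.

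After Eppk1, the lowest gene was Fkbp5, which encodes a co-chaperone of the glucocorticoid receptor that glucocorticoids induce. It stood at 107 CPM in wildtype cells (interval 99.2 to 114) and 32.7 CPM in the knockout library (interval 27.2 to 39.1), for a log2 ratio of -1.70 (interval -1.99 to -1.42). Tsc22d3, the glucocorticoid-induced leucine zipper gene, stood at 259 and 120 CPM, a ratio of -1.10 (interval -1.26 to -0.96). Both were lower in the remaining gated keratinocytes as well, with ratios of -0.80 and -0.40, and in the bulge-gated cells, with -2.47 and -1.40. Txnip, the thioredoxin-interacting protein gene, stood at 2203 and 1050 CPM (ratio -1.07), and Pik3r1, which encodes a regulatory subunit of PI3-kinase, at 373 and 217 CPM (ratio -0.78, but -0.33 in cells with no UMI of a bulge gene).

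Ccn2, which encodes connective tissue growth factor and is a target of YAP and TEAD, had the next lowest ratio after Fkbp5. It stood at 1110 CPM in wildtype cells (interval 1086 to 1135) and 470 CPM in the knockout library (interval 448 to 492), for a ratio of -1.24 (interval -1.32 to -1.17). The remaining gated keratinocytes hardly held it, at 16.8 and 16 CPM, whereas the bulge-gated cells held 2201 and 485 CPM (ratio -2.18). After thinning, a Ccn2 UMI was found in 30.9% of the selected wildtype cells (interval 28.5 to 33.5) and 18.7% of the knockout cells (interval 15.9 to 21.7), and in 0.842% and 0.102% of the immune-gated cells. The unthinned shares were 36.7% and 22.8%.

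Ptgs2 and Hpgd encode the enzymes that make and degrade prostaglandins, and both were lower in the knockout library. Ptgs2 stood at 542 and 266 CPM (ratio -1.03, interval -1.13 to -0.93), and Hpgd at 103 and 56.8 CPM (ratio -0.86, interval -1.09 to -0.64). Ptgs2 had a ratio of -0.03 in the remaining gated keratinocytes and Hpgd one of -1.12. Among the selected cells, 37 wildtype and 16 knockout cells held 50% of the Ptgs2 UMIs. Epgn, which encodes the EGF receptor ligand epigen, stood at 821 and 452 CPM (ratio -0.86), while in the remaining gated keratinocytes it was higher in the knockout library (2817 and 3557 CPM, ratio 0.34). Serpina3g, a serpin gene, and Slc39a8, a metal ion transporter gene, had ratios of -0.86 and -0.77.

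Lor, which encodes the cornified envelope protein loricrin, stood at 251 and 133 CPM, a ratio of -0.91. The ratio was -0.27 in cells with at least 5 UMIs of the selecting genes, -1.27 without droplets found in both libraries and -1.05 without the cell with most UMIs in each. Lor belongs to granular cells, and 3 cells held 50% or more of its UMIs in each library. The remaining gated keratinocytes gave 1062 and 328 CPM of Lor. Immune-gated cells, which should lack it, gave 648 and 140 CPM, but single cells held 3249 and 508 of those UMIs. Thinned, 14.4% and 9.17% of the immune-gated cells had a Lor UMI (33.0% and 19.0% unthinned), against 17.5% and 13.4% of the selected cells (32.4% and 22.8% unthinned). The part of granular cells and of free RNA in the ratio was not tested.

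The higher genes had smaller ratios, and 3 of the 10 were still at 0.5 or more when the groups by leading gene were given their wildtype proportions. Zfp296, a zinc finger gene, stood at 134 and 208 CPM (ratio 0.64, interval 0.50 to 0.78), and Rgcc, a regulator of the cell cycle, at 105 and 164 CPM (ratio 0.64, interval 0.48 to 0.80). Angptl4, which encodes an inhibitor of lipoprotein lipase, stood at 235 and 340 CPM, and its ratio of 0.53 lay beside 0.60 in the remaining gated and 0.71 in the bulge-gated keratinocytes. Hspg2, the gene of the basement membrane proteoglycan perlecan, stood at 74.7 and 107 CPM (ratio 0.51) and Hyal1, a hyaluronidase gene, at 76.7 and 110 CPM (ratio 0.52). Man2a2, Acsbg1, Csnk1e, Stmn1, Fam43a and Pcdh7 had ratios between 0.48 (Pcdh7) and 0.57 (Man2a2). Fam43a and Pcdh7 were short of 0.5, and the Pcdh7 ratio was 0.14 in cells with no UMI of a bulge gene. Sostdc1 had the highest ratio of all, 0.76 (interval 0.63 to 0.89), and is a gene of the rule.

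**Figure D4:**
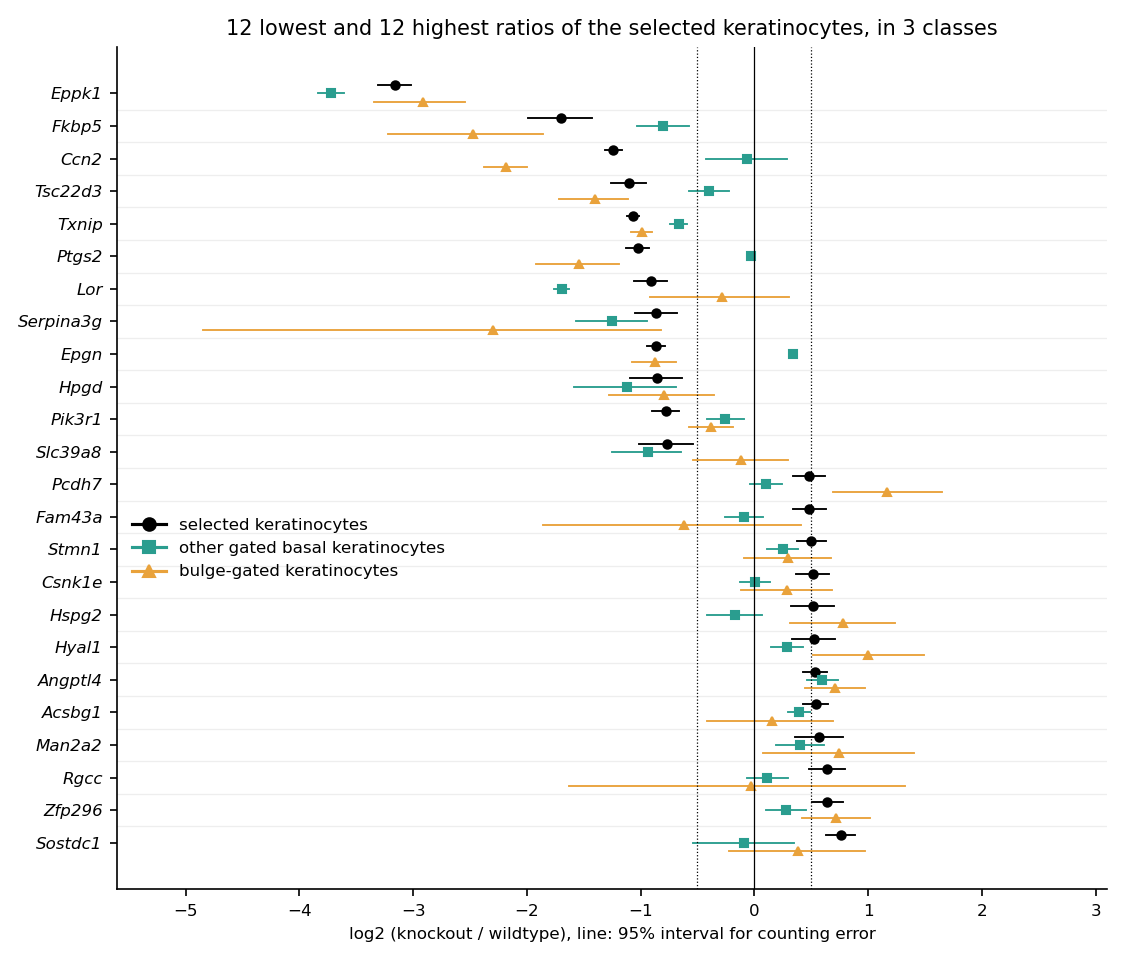
Log2 ratio of knockout over wildtype with its 95% counting interval for the 12 lowest and 12 highest genes of the selected keratinocytes (black circles), with the same genes in the remaining gated (green squares) and bulge-gated keratinocytes (orange triangles). Ccn2 lay at -1.24, -0.07 and -2.18, and Epgn at -0.86, 0.34 and -0.88.

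The direction of these genes was not the same in all groups of selected cells. The groups split the same UMIs by which these genes were picked, so a shared sign is a description only. Among the 4 larger groups, Eppk1, Fkbp5, Tsc22d3, Txnip, Lor, Hpgd and Pik3r1 were lower in the knockout library in each. The Lor interval in Ptn-led cells included 0 (-1.05 to 0.24). Txnip, for example, stood at 934 and 582 CPM in Fst-led, 2931 and 1224 CPM in Postn-led, 4221 and 1382 CPM in Ptn-led and 4422 and 2682 CPM in Sostdc1-led cells. Ccn2 was held mainly by Postn-led cells, at 2807 and 1210 CPM (ratio -1.21), and by Ptn-led cells, at 1166 and 575 CPM (ratio -1.02), with 276 and 210 CPM in Fst-led and 101 and 118 CPM in Sostdc1-led cells. Ptgs2 had its lowest ratio in Fst-led cells, at 536 and 172 CPM (-1.63). It was higher in the knockout library in Sostdc1-led cells, at 23.8 and 103 CPM (2.05, interval 0.98 to 3.43), from 8 and 35 UMIs. Epgn stood at 955 and 422 CPM in Fst-led cells (ratio -1.18), with ratios of -0.28 in Postn-led, 0.18 in Ptn-led and 0.98 in Sostdc1-led cells. Of the 12 genes with the highest ratios, Zfp296, Rgcc, Csnk1e, Hspg2, Hyal1, Stmn1 and Pcdh7 had positive ratios in all 4 groups. Several of their group intervals included 0, such as Rgcc in Sostdc1-led cells (-0.21 to 0.65) and Csnk1e in Postn-led cells (-0.16 to 0.45). Sostdc1 had positive ratios in all 4 groups too, but the rule used it and it defines a group, so its direction there is a description only. Angptl4 was higher in Fst-led (0.77) and Sostdc1-led cells (0.80) and lower in Postn-led cells (-0.40).

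Gene lists were read over members with at least 50 UMIs in the selected cells. Of the 10176 genes with as many, 2.8% were higher and 6.21% lower by 0.5 or more, with a median ratio of -0.02. Of 27 such genes among 30 listed for the glucocorticoid response, 8 were lower and 1 higher by 0.5, with a median of -0.13. Beside Fkbp5, Tsc22d3, Txnip and Pik3r1 the lower ones were Zbtb16 (450 and 270 CPM, ratio -0.74), Cebpd (286 and 173 CPM, ratio -0.72), Ddit4 (358 and 250 CPM, ratio -0.52) and Tgm2, whose 56 and 10 UMIs gave -1.46 (interval -2.65 to -0.53). Angptl4 was the higher one. The most counted member, Dusp1, stood at 4237 and 4024 CPM (ratio -0.07), and Per1, Sgk1 and Klf9 had ratios of -0.09, -0.13 and 0.08.

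Of 10 clock output genes among 11 listed, 4 were lower by 0.5 and none higher, with a median of -0.35, beside -0.29 in the remaining gated keratinocytes. These were Bhlhe41 (17.2 and 6.77 CPM, ratio -1.32), Dbp (19.6 and 12.4 CPM, ratio -0.65), Tef (75.3 and 49.5 CPM, ratio -0.60) and Nr1d1 (276 and 191 CPM, ratio -0.53), the last a repressor that the clock drives. The Bhlhe41 ratio was -0.58 in cells with no UMI of a bulge gene, and a single wildtype cell held 18 of its 124 wildtype UMIs. Per2 had the highest ratio, 0.43 (interval -0.03 to 0.87). The 6 genes of the opposite phase had a median of 0.15, with Npas2 lowest (-0.26), Nfil3 most counted (0.10) and Arntl, which encodes the core clock factor BMAL1, highest at 47.5 and 54.9 CPM (ratio 0.21, interval -0.05 to 0.47). The time of day at which each mouse was killed is not given in the sources used here, and it cannot be told apart from genotype.

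Of 23 genes among 25 listed for cholesterol synthesis, 8 were lower by 0.5, none higher, and 22 had a negative ratio, with a median of -0.36 in the selected cells and -0.10 in the remaining gated keratinocytes. Msmo1, a sterol oxidase gene, stood at 129 CPM in wildtype and 47.4 CPM in the knockout library (ratio -1.44, interval -1.69 to -1.21). Insig1, a sterol-sensing regulator, stood at 76.1 and 44.1 CPM (ratio -0.78), and Cyp51 at 77.3 and 51.1 CPM (ratio -0.59). Hmgcs1, the most counted member, stood at 427 and 337 CPM (ratio -0.34). Idi1, Acat2, Tm7sf2 and Mvk had ratios of -0.95, -0.93, -0.76 and -0.65. Fdft1 was the only member with a positive ratio (0.11). Sebaceous markers, which mark a lipid-making gland of the follicle, had a lower sum too, as given below. A single selected wildtype cell held 1801 of their 3180 wildtype UMIs.

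The median over 20 of the 22 YAP and TEAD targets was -0.04, so Ccn2 did not stand for the list. Lower by 0.5 were Ccn2, Igfbp3 (ratio -0.68, interval -0.72 to -0.64) and F3, which encodes tissue factor (110 and 69.5 CPM, ratio -0.66). Igfbp3 had a ratio of -0.38 as a mean over cells and of -0.46 after thinning, short of 0.5, and one of 0.19 in the remaining gated keratinocytes. Ccn1, which is often read beside Ccn2, stood at 1650 and 1617 CPM (ratio -0.03), and Nuak2 had the highest ratio, 0.48.

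Adhesion genes lay mostly close between the libraries. Of 30 basement membrane and integrin genes among 34, 3 were lower by 0.5 and none higher, with a median of 0.03. Thbs1, which encodes thrombospondin-1, was the abundant member among them, at 1520 and 917 CPM (ratio -0.73, interval -0.78 to -0.67). Itgb6, an integrin subunit that activates TGF-beta, stood at 37.5 and 22.2 CPM (ratio -0.75), and Lamb1 rested on 47 and 12 UMIs. Col17a1, the most counted, had a ratio of 0.02, Itga6 one of 0.21 and Nid1 the highest, 0.45. Of 18 genes of desmosomes and adherens junctions, Dsc2 alone passed 0.5 (12.3 and 7.58 CPM, ratio -0.68, interval -1.37 to -0.07), and the median was -0.06. Jup, the most counted, stood at 1989 and 2010 CPM, Nectin1 had the highest ratio (0.19), and Dsg3 at 474 and 397 CPM (ratio -0.25).

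Among 14 of 16 keratins, Krt75 (27.8 and 13.0 CPM, ratio -1.09), Krt18 (ratio -0.69 from 42 and 13 UMIs) and Krt16 (824 and 574 CPM, ratio -0.52) were lower by 0.5. Krt8, a keratin of simple epithelia and Merkel cells, was higher, at 9.41 and 20.6 CPM (ratio 1.13, interval 0.64 to 1.62). The median was -0.03, Krt5, the most counted, had a ratio of 0.16, and Krt6a and Krt17 had ratios of -0.35 and -0.09.

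The signalling lists that the selecting genes belong to gave few differences of that size. Of 28 BMP and activin genes among 35, which include receptors and targets of the pathways that Fst and Sostdc1 block, Fstl1 alone was lower by 0.5 (29.9 and 20.3 CPM, ratio -0.55, interval -0.96 to -0.17), and the median was -0.04. The targets Id1, Id2 and Id3 had ratios of -0.01, -0.10 and -0.08, the ligand gene Bmp2 one of -0.44 the receptor gene Bmpr1a one of 0.18 and the signal transducer gene Smad2 the highest, 0.25. Of 40 Wnt genes among 51, 5 were lower and none higher, with a median of -0.05. The receptor gene Fzd1 stood at 92.7 and 61.4 CPM (ratio -0.59, interval -0.82 to -0.37), the secreted inhibitor gene Wif1 at 23 and 13.3 CPM (ratio -0.78), and Rnf43 at 38 and 26.8 CPM (ratio -0.50). Porcn had a ratio of -0.58 whose interval reached 0.05, and the UMIs of Dkkl1 came from 43 and 10 cells. Axin2, a common readout of Wnt signalling, stood at 92.0 and 100 CPM (ratio 0.12, interval -0.07 to 0.31), Ctnnb1, the most counted, had a ratio of -0.05, and the ligand gene Wnt4 the highest, 0.49.

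Of 10 Hedgehog genes among 14, Gli2 was lower (28.1 and 18.9 CPM, ratio -0.56, interval -0.98 to -0.17), with Gli1 at -0.49, Boc, the most counted, at -0.41 and Ptch1, a receptor and target, at -0.38, while Cdon, a co-receptor gene, had a ratio of 0.30. Of 14 Notch genes among 18, Nrarp, a target that dampens the pathway, was higher (78.7 and 115 CPM, ratio 0.54, interval 0.36 to 0.73, but 0.43 after thinning). The receptor gene Notch1 stood at 477 and 622 CPM (ratio 0.38), and the target Hes1 at 677 and 556 CPM (ratio -0.28). Of 9 among 12 receptors and binding partners of pleiotrophin, none passed 0.5, with Ptprs highest at 0.34, Sdc1, the most counted, at 0.19 and Sdc2 lowest at -0.19.

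Genes that respond early to tissue dissociation were at similar levels. None of the 31 passed 0.5 and their median was 0.02, with Egr2 highest (437 and 564 CPM, ratio 0.37) and Hspb1 lowest (5514 and 4370 CPM, ratio -0.34). Jun, the most counted, stood at 6341 and 6949 CPM.

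**Figure D5:**
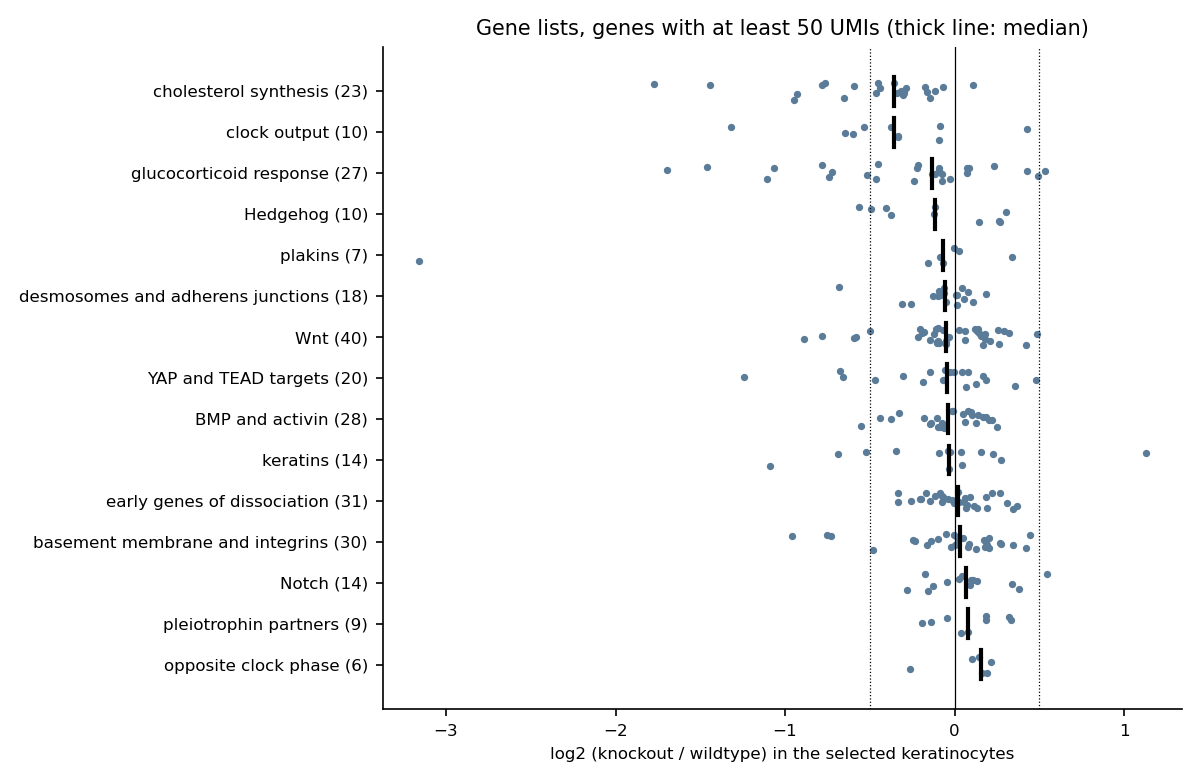
Log2 ratio of knockout over wildtype in the selected keratinocytes for each gene with at least 50 UMIs of the 15 lists (dots, number of genes in brackets) and the list median (thick line), with dotted lines at 0.5 in either direction. The medians of cholesterol synthesis (-0.36) and clock output (-0.35) were the lowest, and that of the opposite clock phase (0.15) the highest.

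Markers of other cell types were found in the selected cells of both libraries, and for several of them a few cells gave most of the counts. The 6 sebaceous markers summed to 440 CPM in wildtype and 173 CPM in the knockout library. In the remaining gated keratinocytes their sum was higher in the knockout library, at 857 and 1766 CPM. Scd1, a desaturase gene and the most abundant of these markers in the selected cells, stood there at 289 and 59.0 CPM (ratio -2.29). However, 1 wildtype cell held 1586 of its 2089 UMIs, and without the cell with most UMIs in each library the ratio was -0.61. The part of sebaceous RNA in the lower cholesterol genes was not tested beyond this. The 4 granular markers summed to 508 and 767 CPM although Lor was lower, because 1 knockout cell held 1549 of the 1800 Flg UMIs. Flg, which encodes filaggrin, had a ratio of 2.12 with all cells and of 0.04 without the cell with most UMIs in each library.

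The 5 melanocyte markers summed to 50.4 CPM in the wildtype, with Dct the most abundant, and 1.08 CPM in the knockout library, where 3 of the 5 were at 0. Only 4 selected wildtype cells held at least 3 of these UMIs, and no knockout cell did. The 6 immune markers summed to 795 and 1007 CPM, with Cd74 the most abundant (537 and 687 CPM, ratio 0.35). Only 6 wildtype and 5 knockout cells held 50% of the Cd74 UMIs, and the ratio was -0.80 without the highest 5% of doublet scores. The 13 fibroblast markers summed to 683 and 729 CPM, with Sparc the most abundant (177 and 178 CPM), and 5 of the 7 companion and inner sheath markers stood below 2 CPM in both libraries, the sum being 41.4 and 25.4 CPM. The 5 endothelial markers summed to 12.2 and 3.52 CPM and the 5 mural markers to 11.8 and 9.47 CPM. Schwann markers (118 and 138 CPM) were nearly all Mbp. Merkel markers summed to 15.8 and 24.4 CPM, with Krt8 the most abundant and Atoh1 at 0 in both libraries. Dermal papilla markers summed to 15.6 and 22.2 CPM, with Hhip the most abundant and Corin and Alx4 at 0, and the 4 cell cycle markers, held down by the rule, to 20.8 and 25.7 CPM. The 7 spinous markers, which include the gated Krt1 and Krt10, summed to 5115 and 5269 CPM with Lypd3 the most abundant, beside 5526 and 5049 CPM in the remaining gated keratinocytes, and 1371 wildtype and 793 knockout cells held at least 3 of their UMIs. The part of such cells in the ratios above was not tested apart from the values without single cells.

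The knockout line was backcrossed, and genes near Eppk1 were therefore looked at separately. Of 139 detected genes of chromosome 15 other than Eppk1, 1 was higher and 4 lower by 0.5, with a median ratio of -0.01, beside 0.317% higher and 1.27% lower among all 3156 genes. Within 10 Mb of Eppk1 these were Ly6e (286 and 184 CPM, ratio -0.63), Sun2 (200 and 140 CPM, ratio -0.51), Tef (ratio -0.60) and Csnk1e (131 and 187 CPM, ratio 0.51), 4 of the 52 genes tested there. Ly6e lies 1.15 Mb from Eppk1 and Csnk1e 3.32 Mb, and the remaining lower gene, Kif21a (ratio -0.52), lies 14.8 Mb away. Position and genotype cannot be told apart for them.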

How the data were processed

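Dorsal skin of 1 wildtype and 1 Eppk1 knockout mouse was profiled by single-cell Flex RNA sequencing. The authors deposited filtered matrices of whole-number UMI counts per probe-targeted gene and cell, made with Cell Ranger 8.0.1 against mm10 according to the paper and the submitters' processing notes. The matrices held 9179 wildtype and 8811 knockout cells with 77638793 and 65118304 UMIs (median 5078 and 5093 per cell) and 19059 genes. Cells outside 200 to 45000 UMIs or 100 to 7500 genes, or with over 10% of their UMIs from mitochondrial genes, were removed, which left 8875 and 8617. Doublets were scored with Scrublet and kept, the highest 5% being left out as an alternative.

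The members, gene lists and naming rules were chosen with earlier results of these data known. Keratinocyte gates were percentages of all UMIs of a cell, and the paper's clusters were not used. Bulge-gated cells passed the keratinocyte gates, with 3 or more UMIs of the 6 bulge genes and more of these than of the 5 selecting genes, and the remaining gated cells had fewer than 3 UMIs of each set. Fibroblast-gated cells had 2% or more of collagen and decorin UMIs, and immune-gated cells 5 or more UMIs of Ptprc, Cd74, Tyrobp and Fcer1g, with keratinocyte and collagen genes under 0.5%. UMIs were summed per library over members and divided by the non-mitochondrial total. Ratio intervals were exact conditional binomial, CPM intervals exact Poisson and share intervals Clopper-Pearson, all at 95%, and cover counting error only. The genes named between genotypes were the 12 with the lowest and the 12 with the highest log2 ratio among those with a UMI in 25% of member cells of either library. The genes named between cell classes were, outside the rule, those with the largest ratio in the same direction in both libraries (by the smaller of the 2 ratios) and a UMI in at least 25% of the cells of the higher class in both libraries. From each gene list the members past 0.5, the highest, the lowest and the most counted were named. Further list members, the genes of chromosome 15 and the genes shown by leading group were chosen after their values were seen. Some list members are not reported here by name. No p-value was computed, since each genotype had 1 library. Cells were thinned to 2000 UMIs with a fixed seed for shares of cells. Alternatives were other thresholds, cell filters, scalings and weightings, and 2 more, the cells with no bulge gene UMI and sums without the cell with most UMIs of a gene, which were chosen after seeing the data. The calculations used Python 3.11.15, numpy 2.4.6, scipy 1.17.1, pandas 2.3.3, scanpy 1.11.5 and, for TMM scaling factors of the counts, edgeR 4.0.16 in R 4.3.3, and were tested on simulated data. Gene coordinates are those of GENCODE M21.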

Additional observations from a re-analysis of the deposited data

Results flagged for a closer look

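Epgn differed in direction between classes of keratinocytes. Its log2 ratio of knockout over wildtype was -0.86 in the selected keratinocytes (821 and 452 CPM) and 0.34 in the remaining gated basal keratinocytes (2817 and 3557 CPM, interval 0.31 to 0.36). The difference between the classes was not tested, since each genotype had 1 library. In the selected cells 26 wildtype and 11 knockout cells held 50% of the Epgn UMIs.

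Outside the quality filters, 8 cells met the rule for the selected keratinocytes, 6 in the wildtype and 2 in the knockout library, and entered no comparison.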

How the results depend on the processing

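The counts of genes past a log2 ratio of 0.5 depended most on the detection rule. With a UMI required in 10% of cells, 45 genes were higher and 128 lower, and with 50 UMIs and no detection rule 285 were higher and 632 lower, where genes of few counts enter. After thinning to 2000 UMIs, 19 genes were lower, 17 of them among the 40, and 8 higher, 4 of them among the 10. The detection rule then leaves fewer genes. Without regard to that rule, the ratios of 32 of the 40 and 8 of the 10 were still past 0.5, and those of the others were not. Of the genes then higher, 5 of 9 with at least 5 UMIs of the selecting genes, 3 of 8 in the wildtype mix of leading genes and 7 of 14 as a mean over cells were among the 10. Among the 692 wildtype and 451 knockout cells with no UMI of a bulge gene, an alternative chosen after seeing the data, 25 genes were higher (8 shared with the 10) and 44 lower (19 shared with the 40). In those cells the median of the dissociation genes was 0.10, and the ratios of Lamb1 and Pecam1 were 0.32 and 0.18, from 3 and 2 and from 8 and 5 UMIs. The bulge genes of the rule and Dct were at 0 in both libraries there and have no ratio. The share of selected cells among gated keratinocytes was 33.7% and 27.9% with at least 5 UMIs of the 5 genes, 42.8% and 36.6% with at least 2, and 32.7% and 27.6% after thinning, always lower in the knockout library. The median of the keratins was -0.14 without droplets found in both libraries, and the ratio of the other plakins -0.020 as a mean over cells. The Eppk1 ratio was -3.32 without the cell with most UMIs and otherwise between -3.30 and -3.09. Of the 23 named genes other than Eppk1, all 23 kept their sign and 11 stayed past 0.5 under all 13 alternatives that applied to them (Fkbp5, Ccn2, Tsc22d3, Txnip, Ptgs2, Serpina3g, Epgn, Hpgd, Slc39a8, Zfp296 and Man2a2). No paired analysis was possible because each genotype had 1 library. The causes of these shifts were not tested. Depth, at a median of 3761 and 3516 UMIs per cell, leaves genes of few UMIs with wide intervals, and nothing here measures how far mice of a genotype differ.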
